A study of Bos taurus with 138 samples.

Results

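Kinesins are motor proteins that use ATP to move along microtubules, and the genes that encode them carry the symbol KIF followed by a number. The count table of the study held 36 such genes among 16706 genes, and all 36 are described here. They were taken by their symbols alone and then divided by their best-known roles into 13 mitotic kinesins, 14 transport kinesins and 9 ciliary and other kinesins. A mitotic kinesin builds or moves the spindle and the chromosomes, or separates the daughter cells at cytokinesis. Transport kinesins carry vesicles, organelles and mRNA particles, mostly towards the plus ends of microtubules, and several of the remaining members work in cilia. The meiotic spindle of the oocyte forms without centrioles, and mRNA made while the oocyte grows is kept in store until it is translated or degraded.

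The study separated bovine (Bos taurus) oocyte and embryo lysates on sucrose gradients into 10 fractions, F1 to F10, and sequenced each fraction, so that mRNA carrying more ribosomes was recovered in later fractions. It also sequenced whole transcriptomes of the same stages. The 6 stages were the GV (germinal vesicle) oocyte, the MII (metaphase II) oocyte, the 2-cell embryo, the 8-cell embryo, the morula and the blastocyst. Each stage had 2 gradients, lettered A and B, and 3 transcriptomes, lettered A, B and C, which gave 120 fraction libraries and 18 transcriptomes. GV oocytes were taken as cumulus-oocyte complexes from slaughterhouse ovaries, MII oocytes were matured in vitro from such complexes and freed of cumulus cells, and the embryos came from in vitro fertilisation with frozen semen of a Holstein bull. Oocytes and embryos of all stages were exposed briefly to cycloheximide, which holds ribosomes on mRNA, before they were collected, and were then freed of the zona pellucida with protease, and the gradient lysates contained cycloheximide as well. The paper states that oocytes and embryos carried no contaminating cells after rinsing. The transcriptomes were made from pools of the batches that also served for the gradients of their stage. The sources name no transgene or line, and every library came from a pool of oocytes or embryos, so a change of RNA per cell and a change of cell make-up cannot be told apart.

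Fraction libraries held 1229382 to 17342859 counts and transcriptomes 3269386 to 11812567, and the sums over F8 to F10 of a gradient 22543737 to 39380638. Polysomes are taken as F8 to F10, summed within a gradient (the polysome pool), and levels are given as CPM, counts scaled to library size with TMM factors, so a level is relative to the other mRNA of a library. A library with no count of a gene allows up to 3 counts, which is 0.0757 to 0.145 CPM in a pool and 0.226 to 0.882 CPM in a transcriptome, for counting error only. The summed level of 8 oocyte markers was 17904 to 21108 CPM in the GV and MII transcriptomes and 32.5 to 129 CPM in the blastocyst transcriptomes, and that of 7 embryo markers was 5707 to 5838 CPM in the latter but up to 9419.7 CPM in MII transcriptomes. Markers of the cumulus and granulosa cells that surround the oocyte, 10 genes, summed to 339.6 to 1059.6 CPM in the pools and transcriptomes from GV to 2-cell and to 22.4 to 88.3 CPM in morulae and blastocysts, with at least 7 of the 10 detected in each group. In GV, MII and 2-cell material that sum was higher in the pools than in the transcriptomes, in 8-cell embryos it was lower, and its part in the kinesin results was not tested.

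The first question was whether the level of kinesin mRNA in the polysome pools followed its level in the transcriptome. A ratio of pool to transcriptome does not by itself place the mRNA within the gradient. Of the 99 differences called over the 6 stages, 68 were lower and 31 higher levels in the polysome pools, and 39 of the 68 belonged to mitotic kinesins. Of the 35 members abundant enough to test (KIF1A was left out for too few counts), 4 were higher and 5 were lower in the GV pools than in the GV transcriptomes at an adjusted p below 0.05 (edgeR's quasi-likelihood test with Benjamini-Hochberg adjustment), where 22.2% and 17.7% of all 14612 genes were. At MII 8 were higher and 13 lower, beside 30.8% and 26.7% of all genes. The 2-cell pools gave 7 higher and 11 lower (29.1% and 21.9% of all genes), and the 8-cell pools 5 and 14 (28.0% and 31.0%). Morulae gave 5 higher and 14 lower (26.5% and 25.2%), and blastocysts 2 and 11 (20.0% and 20.1%).

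Among the 13 mitotic kinesins 4, 7, 7, 7, 8 and 6 were lower in the pools from GV to blastocyst in order, and 2, 2, 2, 3, 2 and 2 were higher. Their median log2 fold change (pool over transcriptome) was -0.73 in GV oocytes, -2.39 at MII, -1.85 at the 2-cell stage, -1.54 at the 8-cell stage, -2.55 in morulae and -1.27 in blastocysts. Over all genes tested the median lay between -0.26 and 0.18. Of the 13 transport kinesins tested, 1, 5, 4, 7, 4 and 4 were lower in the same order of stages, and 11 calls were of a higher level, with medians of -0.59, -0.87, -0.60, -1.20, 0.36 and -1.45. The 9 ciliary and other kinesins had 7 calls higher and 4 lower over the 6 stages, and all 7 came from stages before the morula. Together the 36 members made up 5285 to 5837 CPM of GV transcriptomes and 3248 to 3668 CPM of GV pools, and 1071 to 1248 and 516 to 562 CPM in blastocysts. The lists were not tested against each other. Leaving KIF2A, which also works in interphase cells, out of the mitotic list left 13 calls higher and 36 lower over the 6 stages, against 13 and 39 with it.

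**Figure D1:**
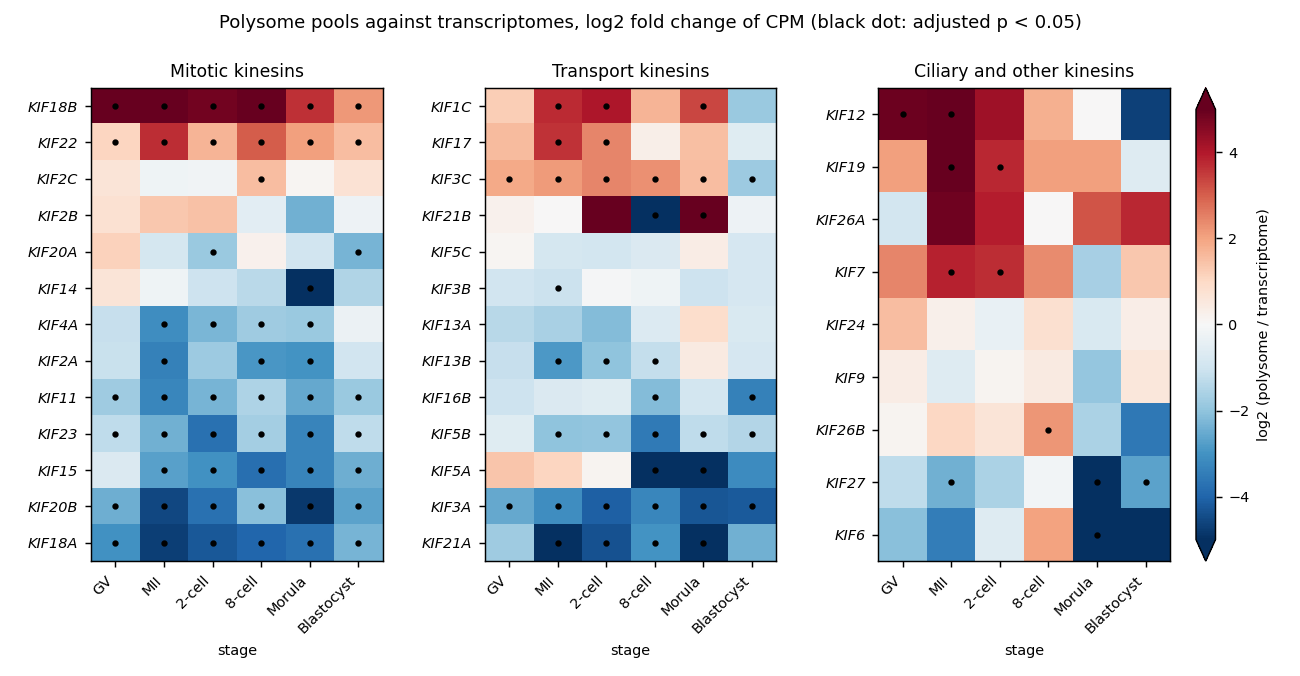
Log2 fold change of CPM in the polysome pools over the transcriptomes for the 35 tested kinesins (vertical axis, by list and by mean fold change) at the 6 stages (horizontal axis). Red marks a higher and blue a lower level in the pools, colours saturate at 5 in either direction, and a black dot marks an adjusted p below 0.05; KIF18B and KIF22 are red with a dot at all 6 stages, and KIF11, KIF18A, KIF20B, KIF23 and KIF3A are blue with a dot at all 6.

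Of the mitotic kinesins, KIF22 and KIF18B were higher in the polysome pools at all 6 stages. KIF22 is a chromokinesin that binds chromosome arms and pushes them away from the spindle poles. Its 2 polysome pools were at 577 and 524 CPM at the GV stage, 1663 and 648 at MII, 355 and 355 at the 2-cell stage, 1454 and 1457 at the 8-cell stage, 439.8 and 637 for morulae and 172 and 119 for blastocysts. In the transcriptomes it was at 339, 188 and 251 CPM at the GV stage, at 86, 88.3 and 96.2 for MII and at 129.7, 96.2 and 105 for the 2-cell stage. KIF22 was later at 113, 189 and 232 CPM for the 8-cell stage, 119.9, 128 and 137 for morulae and 57.3, 47.1 and 46.4 for blastocysts. Both pools lay above all 3 transcriptomes at every stage, with the 2 MII pools far apart and the 2 pools of 2-cell and of 8-cell embryos nearly equal. The log2 fold change was 3.68 ± 0.34 (SE, adjusted p = 2.29e-09) at MII and 3.03 ± 0.33 (SE, adjusted p = 6.06e-08) at the 8-cell stage, and it was least in GV oocytes, at 1.08 ± 0.32 (SE, adjusted p = 0.0093). Only the GV call was lost when 1 library was left out, with an adjusted p of up to 0.0587 without polysome gradient A or transcriptome B.

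KIF18B shortens the astral microtubules that reach from the spindle poles to the cell cortex. Its pools stood at 23.1 and 22.5 CPM at the GV stage, 41.4 and 14.5 at MII, 71.1 and 77.6 at the 2-cell stage, 7.75 and 73.7 at the 8-cell stage, 14.2 and 45.3 for morulae and 8.01 and 4.38 for blastocysts. The transcriptomes were at 0.304, 0.205 and 0.405 CPM at the GV stage, at 0.343, 0.710 and 0.357 for MII and at 2.28, 1.44 and 4.21 for the 2-cell stage. KIF18B was later at 0.428, 0.807 and 1.39 CPM for the 8-cell stage, 2.71, 1.88 and 2.59 for morulae and 1.18, 2.28 and 0.600 for blastocysts. There was again no overlap at any stage, although the 2 gradients differed widely at the 8-cell stage. The fold change on the log2 scale was 6.19 ± 0.87 (SE, adjusted p = 3.97e-06) in GV oocytes, 3.64 ± 0.75 (SE, adjusted p = 0.000333) in morulae and 2.19 ± 0.78 (SE, adjusted p = 0.0279) in blastocysts. The blastocyst call was lost without gradient A or without transcriptome A or C (adjusted p up to 0.168), with F9 and F10 alone as polysomes, and without TMM scaling.

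The mitotic kinesins KIF18A, KIF20B, KIF23 and KIF11 were lower in the pools at all 6 stages. KIF18A limits the length of kinetochore microtubules and so damps the movements of aligned chromosomes. Its pools were at 155 and 120.1 CPM at the GV stage, 74 and 124 at MII, 66.9 and 67.3 at the 2-cell stage, 1.52 and 32.2 at the 8-cell stage, 16.6 and 7.16 for morulae and 8.75 and 5.49 for blastocysts. Its transcriptomes were at 911, 1440.2 and 1015 CPM at the GV stage, at 1996, 2213 and 3613 for MII and at 1522, 1320.1 and 946 for the 2-cell stage. KIF18A was later at 174, 307 and 307 CPM for the 8-cell stage, 150.3, 162 and 165 for morulae and 43.2, 35 and 28 for blastocysts. Every pool was below every transcriptome of its stage, and in 8-cell embryos the pool of gradient A was far below that of gradient B. The log2 fold change ranged from -4.72 ± 0.75 (SE, adjusted p = 9.90e-06) at MII to -2.31 ± 0.67 (SE, adjusted p = 0.00835) in blastocysts, where it was lost without gradient B (adjusted p = 0.0905).

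KIF20B acts late in cytokinesis, when the bridge between daughter cells is cut. Polysome pools held 287 and 225 CPM at the GV stage, 126 and 157 at MII, 98.4 and 101 at the 2-cell stage, 99.9 and 34.4 at the 8-cell stage, 9.35 and 5.64 for morulae and 31.5 and 12.3 for blastocysts. In the transcriptomes KIF20B was at 1194, 1530.2 and 1492 CPM at the GV stage, at 2702, 2928 and 4183 for MII and at 1324, 1486 and 1142 for the 2-cell stage. KIF20B was later at 198, 365 and 284 CPM for the 8-cell stage, 195, 201 and 236 for morulae and 158, 143 and 123 for blastocysts. The groups did not overlap at any stage, and the transcriptomes of MII oocytes were the highest. KIF20B differed most in morulae, by a log2 fold change of -4.82 ± 0.47 (SE, adjusted p = 2.17e-08), and at MII, by -4.53 ± 0.46 (SE, adjusted p = 1.16e-08), and least in 8-cell embryos, by -2.07 ± 0.40 (SE, adjusted p = 0.00014).

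KIF23 is the motor subunit of centralspindlin, which organises the midzone of the anaphase spindle. The pools measured 410.1 and 459 CPM at the GV stage, 354 and 428 at MII, 98.7 and 95.2 at the 2-cell stage, 95.5 and 178 at the 8-cell stage, 21.3 and 53.1 for morulae and 38.8 and 35.8 for blastocysts. The transcriptomes were at 1001, 889 and 1263 CPM at the GV stage, at 1658, 2072 and 2434 for MII and at 1302, 1575 and 1034 for the 2-cell stage. KIF23 was later at 276, 505 and 559 CPM for the 8-cell stage, 354, 383 and 371 for morulae and 101, 90 and 78 for blastocysts. No pool reached the lowest transcriptome of its stage. The log2 fold change went from -1.27 ± 0.35 (SE, adjusted p = 0.00477) in GV oocytes to -3.75 ± 0.39 (SE, adjusted p = 3.58e-08) in 2-cell embryos and back to -1.27 ± 0.35 (SE, adjusted p = 0.00549) in blastocysts. Without gradient A the GV call, and without gradient B the blastocyst call, had an adjusted p of 0.0525 and 0.0521. KIF23 overlaps PAQR5 in the RefSeq annotation, and reads from the overlap cannot be told apart where the counting does not use strand.

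KIF11 slides antiparallel spindle microtubules apart and keeps the spindle bipolar. It was at 15.2 and 9.62 CPM at the GV stage, 11.9 and 6.11 at MII, 10.1 and 7.48 at the 2-cell stage, 36.5 and 41 at the 8-cell stage, 17.5 and 22.6 for morulae and 7.74 and 17.3 for blastocysts in the pools. In the transcriptomes KIF11 was at 46.8, 41.2 and 40.8 CPM at the GV stage, at 84.8, 79.9 and 94.9 for MII and at 51.5, 50 and 29.4 for the 2-cell stage. KIF11 was later at 86.8, 131 and 120.04 CPM for the 8-cell stage, 108, 111 and 135 for morulae and 44.4, 45.2 and 46.4 for blastocysts. The 8-cell pools were the highest of its pools, yet they too lay below all 8-cell transcriptomes. Its log2 fold change was -3.26 ± 0.42 (SE, adjusted p = 4.21e-07) at MII and -1.54 ± 0.38 (SE, adjusted p = 0.00142) in 8-cell embryos, the largest and the smallest of the 6. With F9 and F10 alone as polysomes the 8-cell difference no longer passed the test.

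The other mitotic kinesins were called at fewer stages. KIF15, which can stand in for KIF11 in holding the spindle open, was lower at every stage but GV, with log2 fold changes from -3.78 in 8-cell embryos to -2.46 in blastocysts, and 4 of its 5 calls were lost when 1 library was left out. The remaining KIF15 call, in 8-cell embryos, was lost with that stage fitted alone. KIF4A, a chromokinesin of the central spindle, was lower from MII to morula, by a log2 fold change of -3.11 at MII. KIF2A, KIF2B and KIF2C are the depolymerases of the kinesin-13 family. KIF2A was lower at MII, at the 8-cell stage and in morulae (log2 fold changes -3.37, -2.93 and -3.01), although its 8-cell pools were at 0.697 and 48.1 CPM and its 8-cell call was lost with that stage fitted alone. KIF2C was higher in the pools of 8-cell embryos alone, at 408 and 249 CPM in the polysome pools and 79.4, 113 and 148 CPM in the transcriptomes, with no overlap and a log2 fold change of 1.53 ± 0.37 (SE, adjusted p = 0.00126). KIF2B stayed at or below 6.18 CPM in the pools and passed the test at no stage. KIF20A, which brings Aurora B to the midzone, was lower in 2-cell embryos (-1.85) and blastocysts (-2.32), and KIF14, a partner of citron kinase in cytokinesis, in morulae (-5.72). KIF20A overlaps CDC23 in the annotation, with the same limit as above.

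**Figure D2:**
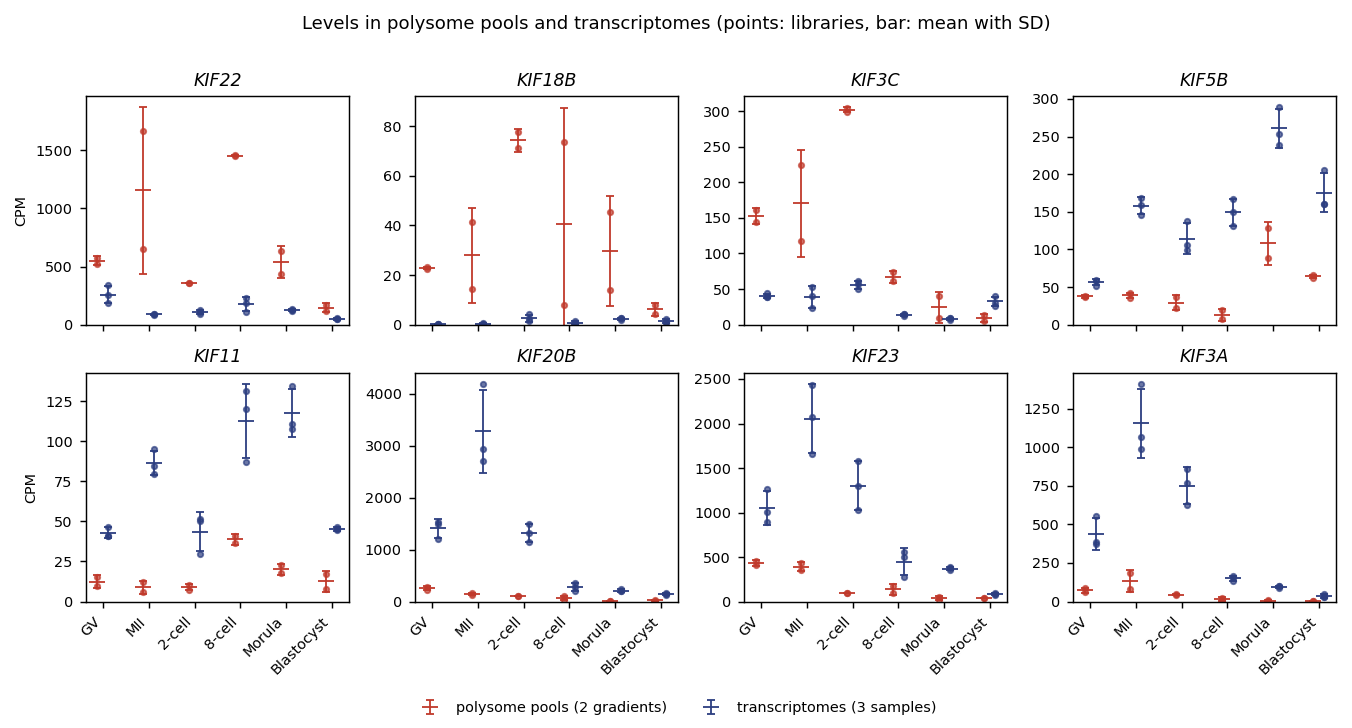
CPM (linear vertical axes from 0, one scale per gene) of 8 kinesins at the 6 stages, with each polysome pool in red, each transcriptome in blue, and bars for the mean with its SD, drawn down to 0 where the SD is larger than the mean. KIF22 and KIF18B pools lie above, and KIF11, KIF20B, KIF23 and KIF3A pools below, the transcriptomes of every stage, while KIF3C changes sides in blastocysts.

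Among the transport kinesins, KIF3A and KIF3C lay on opposite sides. Both are motor subunits of kinesin-2, in which KIF3A pairs with KIF3B or with KIF3C. KIF3A pools were at 85.8 and 62.8 CPM at the GV stage, 84.4 and 184 at MII, 43 and 46.5 at the 2-cell stage, 5.66 and 25.8 at the 8-cell stage, 6.89 and 3.28 for morulae and 3.13 and 0.638 for blastocysts. KIF3A transcriptomes were at 370.3, 555 and 389 CPM at the GV stage, at 986, 1068 and 1409 for MII and at 859, 768 and 623 for the 2-cell stage. KIF3A was later at 133, 168 and 152 CPM for the 8-cell stage, 89.5, 99.4 and 102 for morulae and 47.3, 26.3 and 32 for blastocysts. Every KIF3A pool was below all transcriptomes of its stage. The log2 fold change of KIF3A was -2.56 ± 0.55 (SE, adjusted p = 0.000566) in GV oocytes and -4.26 ± 0.60 (SE, adjusted p = 3.67e-06) in morulae, and the other 4 stages lay between these values.

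KIF3C pools were at 160.3 and 145 CPM at the GV stage, 224 and 117 at MII, 304 and 299 at the 2-cell stage, 73.4 and 60.9 at the 8-cell stage, 9.25 and 39.9 for morulae and 13 and 5.66 for blastocysts. KIF3C transcriptomes were at 43.9, 39 and 38.7 CPM at the GV stage, at 52.9, 40.3 and 23.3 for MII and at 50.3, 56.5 and 60.8 for the 2-cell stage. KIF3C was later at 11.6, 14.5 and 14.7 CPM for the 8-cell stage, 9.24, 9.48 and 6.90 for morulae and 26.8, 31.1 and 40 for blastocysts. The pools were above all transcriptomes up to the 8-cell stage, overlapped them in morulae and were below them in blastocysts. KIF3C was called higher at 5 stages, with log2 fold changes from 1.53 ± 0.44 (SE, adjusted p = 0.0061) in morulae to 2.43 ± 0.44 (SE, adjusted p = 6.67e-05) in 2-cell embryos, and lower in blastocysts at -1.81 ± 0.48 (SE, adjusted p = 0.0041). The morula call rested on gradient B, without which the log2 fold change was 0.11 (adjusted p = 0.886), and the blastocyst call was lost without gradient B (adjusted p = 0.0888). KIF3B passed the test at MII alone, at a log2 fold change of -1.08 (adjusted p = 0.0487), and the call was lost without either gradient or transcriptome A or B (adjusted p up to 0.167) and under 7 of 12 other settings.

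KIF5A, KIF5B and KIF5C are the heavy chains of kinesin-1, the motor that carries many organelles and mRNA particles. KIF5B was lower at every stage after GV, and most in 8-cell embryos, where it was at 6.97 and 18.9 CPM in the polysome pools and 166, 132 and 149.6 CPM in the transcriptomes. The 8-cell groups were far apart, with a log2 fold change of -3.53 ± 0.37 (SE, adjusted p = 2.94e-08), against -2.02, -1.96, -1.27 and -1.45 at MII, 2-cell, morula and blastocyst. KIF5A was at 0 and 0 CPM in the polysome pools and 0.600, 2.06 and 2.26 CPM in the transcriptomes in 8-cell embryos and at 0 and 0 CPM in the polysome pools and 1.03, 0.983 and 1.83 CPM in the transcriptomes in morulae. Both differences passed the test, but with pools at 0 the fitted fold change depends on the prior count and is not given, and with F6 to F10 as polysomes neither passed and the 8-cell difference changed sign. KIF5C passed at no stage.

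KIF1C and KIF1A belong to the vesicle-carrying kinesin-3 group. KIF1C pools were at 0.706 and 1.14 CPM at the GV stage, 14.7 and 2.72 at MII, 5.42 and 28.8 at the 2-cell stage, 5.58 and 7.29 at the 8-cell stage, 15.1 and 16.6 for morulae and 3.96 and 1.70 for blastocysts. KIF1C transcriptomes were at 0.0759, 0.410 and 0.710 CPM at the GV stage, at 1.14, 0.811 and 0 for MII and at 1.07, 0.639 and 1.35 for the 2-cell stage. KIF1C was later at 3.26, 1.61 and 1.04 CPM for the 8-cell stage, 2.33, 1.16 and 1.19 for morulae and 10.3, 10.2 and 10.2 for blastocysts. The pools were above all transcriptomes from MII to morula, below them in blastocysts, and overlapped them in GV oocytes. It was called higher at MII (3.71 ± 0.99 SE, adjusted p = 0.00264), in 2-cell embryos (4.06 ± 0.98 SE, adjusted p = 0.00133) and in morulae (3.34 ± 0.95 SE, adjusted p = 0.00554), on the log2 scale. The MII call was lost without gradient A (adjusted p = 0.137) and the 2-cell call without gradient B (adjusted p = 0.0751). KIF1A did not exceed 2.06 CPM in any pool or 0.269 CPM in any transcriptome.

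KIF13A, KIF13B and KIF16B are kinesin-3 motors of endosomes and vesicles. KIF13B was lower at MII, 2-cell and 8-cell (log2 fold changes -2.89, -2.02 and -1.20), KIF16B in 8-cell embryos and blastocysts (-2.19 and -3.36), and KIF13A at no stage. The 8-cell call of KIF13B was lost without gradient B or transcriptome A, and was kept under 7 of 12 other settings. That of KIF16B was lost with the 8-cell stage fitted alone. KIF17, a kinesin-2 that works as a homodimer, was higher at MII, at 69.7 and 50.2 CPM in the polysome pools and 5.72, 4.06 and 4.88 CPM in the transcriptomes, and at the 2-cell stage. The MII groups of KIF17 did not overlap (log2 fold change 3.62 ± 0.87 SE, adjusted p = 0.00111). Its 2-cell call was lost without gradient B or transcriptome A or C. KIF21A, which slows microtubule growth, was at 0 and 0.144 CPM in the polysome pools and 25.8, 23.6 and 42.4 CPM in the transcriptomes in morulae. KIF21A was called lower from MII to morula, and in blastocysts, at 9.96 and 15.7 CPM in the pools and 65.6, 73.2 and 66.6 in the transcriptomes, it did not pass the test (adjusted p = 0.0744). The 8-cell call of KIF21A was kept under 9 of 12 other settings, and lost with that stage fitted alone. The calls of its relative KIF21B, lower at the 8-cell stage and higher in morulae, rested on pools of 0 and 0 and of 6.12 and 0.0575 CPM, and the second was lost without gradient A.

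Of the ciliary and other kinesins none was called at more than 3 stages. KIF12 was called higher in GV oocytes and at MII. It was at 0.757 and 4.73 CPM in the polysome pools and 0.228, 0 and 0 CPM in the transcriptomes in GV oocytes, and at 0.937 and 27.3 CPM in the polysome pools and 0, 0 and 0 CPM in the transcriptomes at MII. The pools of both stages were above all transcriptomes, but gradient B carried most of the counts. Leaving gradient B out ended both calls (adjusted p 0.0508 at MII), and with transcriptomes at 0 no fold change is given for MII. The GV call was also lost without transcriptome B or C (adjusted p up to 0.304 over the libraries left out). It was kept under 5 of 12 other settings. KIF19, which shortens ciliary microtubules, was higher at MII, at 127 and 72.5 CPM in the polysome pools and 2.18, 2.23 and 0.357 CPM in the transcriptomes, and in 2-cell embryos, at 87.4 and 47.2 CPM in the polysome pools and 5.78, 5.36 and 3.61 CPM in the transcriptomes. The groups did not overlap at either stage, and the log2 fold changes were 5.96 ± 1.06 (SE, adjusted p = 4.35e-05) and 3.77 ± 0.96 (SE, adjusted p = 0.00217).

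KIF7, a regulator of Hedgehog signalling at the tip of the cilium, was higher at MII and in 2-cell embryos (3.84 and 3.67), and it overlaps TICRR in the annotation. KIF27, a close relative of KIF7, was instead lower at MII, in morulae and in blastocysts, and its morula values were 0.0482 and 0.518 CPM in the polysome pools and 18.6, 19.1 and 25.9 CPM in the transcriptomes (log2 fold change -6.11 ± 0.94 SE, adjusted p = 1.06e-05). The morula groups of KIF27 were far apart, and its calls at MII and in blastocysts were each lost without gradient B. KIF26B, an atypical kinesin, passed the test in 8-cell embryos, at 2.62 and 0.705 CPM in the polysome pools and 0.0857, 0.717 and 0.261 CPM in the transcriptomes, where the groups overlapped, and the call was lost without gradient A or transcriptome A or C. KIF6 was called lower in morulae, with pools at 0 and transcriptomes at 0.373, 0.805 and 0.323 CPM. KIF9, KIF24 and KIF26A passed at no stage.

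The next question was where in the gradient kinesin mRNA lay, and heavy fractions (F8 to F10) were compared with light ones (F3 to F5, which hold subunits and monosomes) of the same gradients. In 8-cell embryos 3 of the 36 members were higher and 3 lower in the heavy pools, where 4.55% and 4.80% of all 14873 genes were. By edgeR's quasi-likelihood test no member passed at another stage, where at most 0.888% of all genes did in either direction, and 0% in 2-cell gradients. With that test 3, 3, 2, 7 and 5 members had an unadjusted p below 0.05 in GV, MII, 2-cell, morula and blastocyst gradients. DESeq2 called 1, 1, 0, 5 and 2 there, and the likelihood ratio test 0, 0, 0, 5 and 3. All 3 members higher in the heavy 8-cell pools were mitotic and all 3 lower were transport kinesins, and the median log2 fold change of the lists at that stage was 1.35 and -1.68, against 0.00 over all genes.

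In 8-cell gradients KIF11 was at 33.2 and 36.5 CPM in the heavy pools and 4.06 and 0.478 CPM in the light pools, and KIF23 at 86.9 and 158 CPM in the heavy pools and 40.8 and 23.1 CPM in the light pools. KIF2C was at 371 and 221 CPM in the heavy pools and 71.6 and 93.7 CPM in the light pools. For these 3 genes both heavy pools exceeded both light pools, and in each gradient the highest level from F3 to F10 was in F8, F9 or F10, although in gradient A the heavy KIF11 counts all came from F10. The log2 fold changes were 3.94 ± 1.08 (SE, adjusted p = 0.0315), 1.94 ± 0.55 (SE, adjusted p = 0.0351) and 1.84 ± 0.51 (SE, adjusted p = 0.0342). KIF17 was at 0.299 and 0.772 CPM in the heavy pools and 23.8 and 12.8 CPM in the light pools, and KIF16B, which carries early endosomes, at 0.299 and 1.88 CPM in the heavy pools and 9.24 and 17.6 CPM in the light pools. KIF5A was at 0 and 0 CPM in the heavy pools and 10.6 and 5.29 CPM in the light pools. Here both heavy pools were below both light pools, with log2 fold changes of -5.07 ± 1.44 (SE, adjusted p = 0.0365) and -3.61 ± 0.97 (SE, adjusted p = 0.029) and an adjusted p of 0.0109 for KIF5A. Leaving out 1 library ended each of these calls except that of KIF5A, and with the gradient as a block, since both pools came from the same gradient, the calls of KIF23 and KIF2C were lost. With the 8-cell stage fitted alone, an alternative added after seeing the data, none of the 6 passed (edgeR's quasi-likelihood test, adjusted p from 0.0852 to 0.334). In that fit 0 of all 12067 genes tested passed in either direction, so the loss was not particular to these members.

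**Figure D3:**
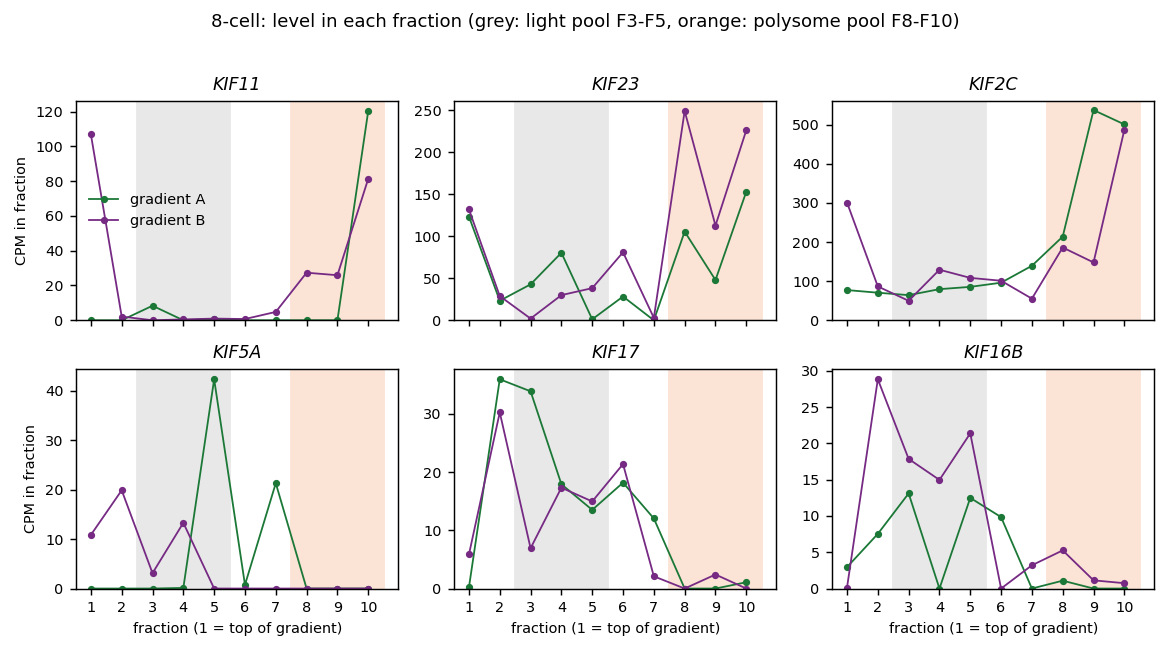
CPM (vertical axis, linear from 0) of 6 kinesins in F1 to F10 of the 2 gradients of 8-cell embryos, with the light pool shaded grey and the polysome pool orange. KIF11, KIF23 and KIF2C peak in the orange fractions among F3 to F10, and KIF5A, KIF17 and KIF16B are at or near 0 there, while the 2 gradients differ in single fractions.

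The fractions of the later stages spread more between gradients, with a common dispersion of 1.14, 1.13 and 0.675 in 8-cell, morula and blastocyst gradients against 0.155, 0.271 and 0.195 in GV, MII and 2-cell gradients, so each stage was also fitted alone, a choice made after seeing the data. In GV oocytes fitted alone, 9 of 34 members tested were higher and 3 lower in the heavy pools, where 9.51% and 8.55% of all genes were. The 7 mitotic members higher in the heavy GV pools were KIF20B, KIF18A, KIF4A, KIF23, KIF15, KIF14 and KIF11, beside KIF5B and KIF3A of the transport list. KIF20B was at 265 and 207 CPM in the heavy pools and 64.2 and 45.5 CPM in the light pools (log2 fold change 2.20 ± 0.31 SE, adjusted p = 0.00751), and KIF18A at 143 and 110.5 CPM in the heavy pools and 39.5 and 45.6 CPM in the light pools (1.66 ± 0.30 SE, adjusted p = 0.0123). In F3 of gradients A and B the level was 16.5 and 12.3 CPM for KIF20B, and in F9 it was 258 and 263 CPM. The members lower in the heavy GV pools were KIF18B, KIF1C and KIF19. KIF18B was at 21.4 and 20.7 CPM in the heavy pools and 67.9 and 69.4 CPM in the light pools (-1.62 ± 0.30 SE, adjusted p = 0.0124), KIF19 at 136 and 106 CPM in the heavy pools and 337 and 269 CPM in the light pools (-1.24 ± 0.28 SE, adjusted p = 0.0226) and KIF1C at 0.652 and 1.04 CPM in the heavy pools and 5.12 and 4.47 CPM in the light pools (-2.41 ± 0.61 SE, adjusted p = 0.0309). In 2-cell embryos fitted alone KIF2C was lower in the heavy pools (-1.20 ± 0.22 SE, adjusted p = 0.044), where 2.97% of all genes were. No member passed at MII, where 1.01% of all genes were higher and 0.929% lower. None passed after the 2-cell stage either, where 0% of all genes did. At an unadjusted p below 0.05 there were 14 members at MII and 8, 3 and 2 in 8-cell, morula and blastocyst gradients.

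The comparison of heavy with light fractions and that of polysomes with transcriptomes share the polysome pools, and their values are set side by side here without a test. In GV oocytes the log2 fold changes, heavy over light with the stage alone and then pool over transcriptome, were 2.20 and -2.46 for KIF20B, 1.66 and -3.03 for KIF18A, 1.53 and -1.79 for KIF11, 1.39 and -1.27 for KIF23, 1.29 and -2.56 for KIF3A and -1.62 and 6.19 for KIF18B. With all libraries on a common scale 20 of the 20 GV fractions of KIF20B were below the lowest GV transcriptome (1150.03 CPM), the highest being 300.1 CPM in F8 of gradient A. The same held for 20 of 20 fractions of KIF18A, 20 of KIF23, 20 of KIF11 and 20 of KIF3A. For KIF18B 19 of 20 GV fractions were above the highest transcriptome (0.382 CPM), with the highest level, 73.5 CPM, in F3 of gradient A. For KIF19 20 of 20 fractions were above and for KIF22 19 of 20. At MII, 2-cell, 8-cell and morula, 20 of 20 fractions of KIF18A, KIF23 and KIF5B were each below the lowest transcriptome of their stage. In 8-cell embryos and in morulae 20 of 20 fractions of KIF22 were above the highest transcriptome. In blastocysts 17, 18 and 19 of 20 fractions of KIF18A, KIF23 and KIF5B were below, and 13 of 20 of KIF22 were above. These counts are descriptions, since neighbouring fractions of a gradient are not independent.

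**Figure D4:**
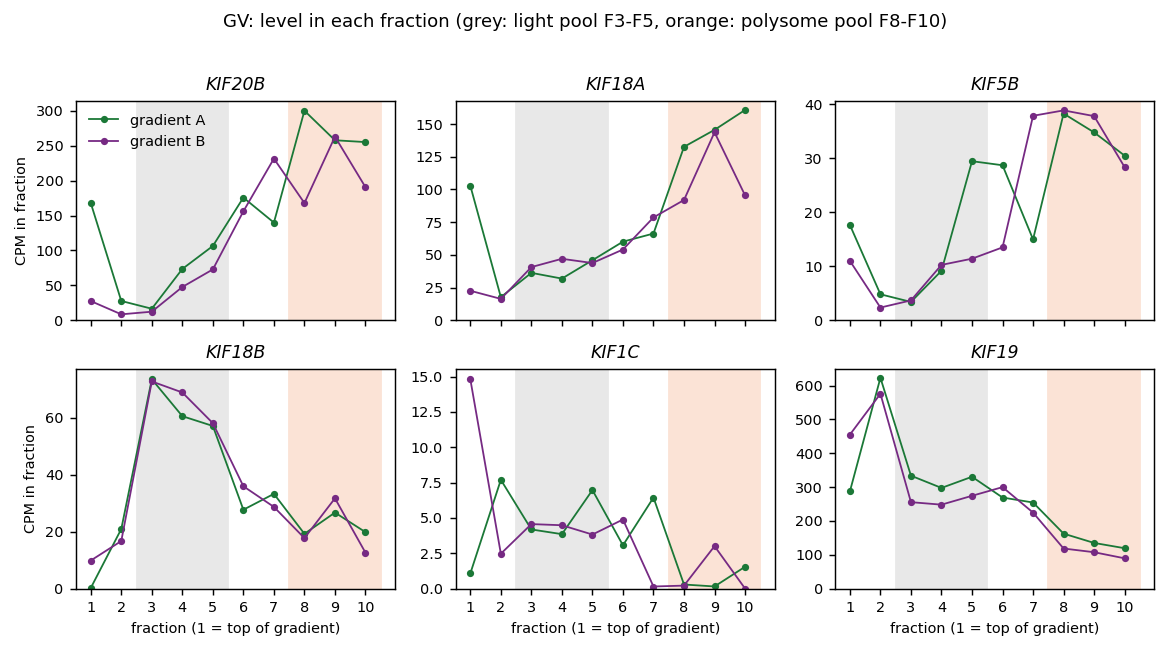
CPM (vertical axis, linear from 0) of 6 kinesins in F1 to F10 of the 2 gradients of GV oocytes, with the light pool shaded grey and the polysome pool orange. KIF20B, KIF18A and KIF5B rise towards the orange fractions in both gradients, and KIF18B, KIF1C and KIF19 are higher in the grey ones.

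Over all 36 members the median difference between heavy and light fractions, as the mean log2(CPM + 1) of F8 to F10 minus that of F3 to F5, went from -0.31 ± 0.69 (SD of 2 gradients) in 8-cell embryos to 0.26 ± 0.29 in blastocysts. The median fitted log2 fold change in GV gradients was 1.31 for mitotic, -0.17 for transport and -0.46 for ciliary and other kinesins, beside -0.08 for all genes.

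Transcriptomes were also compared between consecutive stages. Their levels are relative to the other mRNA of a library, so a rise or fall need not be a gain or loss of kinesin mRNA. Over the 5 transitions 28 of the 42 calls were falls, and the step with the most calls, 19 of the 42, was that from the 2-cell to the 8-cell stage, when the embryonic genome is activated and when the share of all genes called was highest too. From GV to MII 7 of 35 members rose and 2 fell by more than 2-fold at an adjusted p below 0.05, where 6.61% and 10.5% of all genes did. From MII to 2-cell 1 rose and 1 fell (6.0% and 5.96% of all genes), and from 2-cell to 8-cell 3 rose and 16 fell (26.6% and 23.5%). From 8-cell to morula none rose, with 3 members at an unadjusted p below 0.05 in either direction, 1 call by DESeq2 and 2 by the likelihood ratio test, and 1 fell (6.60% and 7.75%). From morula to blastocyst 3 rose and 8 fell (10.2% and 11.4%). The 8 members that fell to the blastocyst stage were 7 mitotic kinesins and KIF3A, while the 3 that rose were transport kinesins. At that step the median log2 fold change was -1.46 for mitotic and 0.84 for transport kinesins, and -0.01 over all genes. Consecutive comparisons share the libraries of the stage between them.

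KIF21A rose most. Its transcriptomes were at 0.0759, 0.103 and 0 CPM at the GV stage, at 0.801, 1.42 and 2.14 for MII and at 0.761, 0.160 and 0.376 for the 2-cell stage. KIF21A was later at 23.1, 20.9 and 17.3 CPM for the 8-cell stage, 25.8, 23.6 and 42.4 for morulae and 65.6, 73.2 and 66.6 for blastocysts. The 3 later stages lay above all libraries of the 3 earlier ones. The log2 change was 4.43 ± 1.31 (SE, adjusted p = 0.019) from GV to MII and 5.54 ± 1.09 (SE, adjusted p = 0.000213) from 2-cell to 8-cell. The GV levels lay below what a count of 0 allows in those libraries (0.228 to 0.308 CPM). The size of the change of KIF21A from GV to MII thus depends on the prior count, and its call did not hold whichever library was left out. KIF13B was at 43.3, 31.5 and 39 CPM at the GV stage, at 64.7, 81.4 and 76.5 for MII and at 43.6, 45.4 and 30.4 for the 2-cell stage. KIF13B was later at 18.3, 9.41 and 9.22 CPM for the 8-cell stage, 1.68, 3.40 and 2.48 for morulae and 8.23, 33.4 and 22.2 for blastocysts. It was lowest in morulae, whose libraries lay below those of all other stages. It fell from 2-cell to 8-cell by 1.69 ± 0.46 (SE, adjusted p = 0.00347) and from 8-cell to morula by 2.29 ± 0.48 (SE, adjusted p = 0.00178) on the log2 scale, and rose by 3.08 ± 0.49 (SE, adjusted p = 5.82e-05) from morula to blastocyst. KIF1C rose at that last step by 2.70 ± 0.89 (SE, adjusted p = 0.0298), from the values given above to 10.3, 10.2 and 10.2 CPM in blastocysts, and the call was lost on leaving out either of 2 morula or any of 3 blastocyst libraries.

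KIF19 fell most. Its transcriptomes were at 31.1, 37 and 27.1 CPM at the GV stage, at 2.18, 2.23 and 0.357 for MII and at 5.78, 5.36 and 3.61 for the 2-cell stage. KIF19 was later at 0.428, 0.269 and 1.74 CPM for the 8-cell stage, 0.747, 2.24 and 1.29 for morulae and 1.18, 1.24 and 1.0 for blastocysts. GV oocytes were above all other stages, and the log2 change from GV to MII was -4.31 ± 0.97 (SE, adjusted p = 0.00227). KIF26B was at 7.21, 11.2 and 6.99 CPM at the GV stage, at 6.30, 5.37 and 7.02 for MII and at 6.69, 5.84 and 5.79 for the 2-cell stage. KIF26B was later at 0.0857, 0.717 and 0.261 CPM for the 8-cell stage, 0.280, 0 and 0.215 for morulae and 0, 0.207 and 0 for blastocysts. KIF17 was at 10.9, 9.43 and 10.9 CPM at the GV stage, at 5.72, 4.06 and 4.88 for MII and at 6.85, 8.23 and 5.87 for the 2-cell stage. KIF17 was later at 0.771, 0.0896 and 0.609 CPM for the 8-cell stage, 0.187, 0.0894 and 0.215 for morulae and 0, 0.829 and 0 for blastocysts. Both were present up to the 2-cell stage and near 0 from the 8-cell stage on, with no overlap. From 2-cell to 8-cell KIF26B changed by -4.09 ± 0.89 (SE, adjusted p = 0.000604) and KIF17 by -3.81 ± 0.88 (SE, adjusted p = 0.000984) on the log2 scale.

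**Figure D5:**
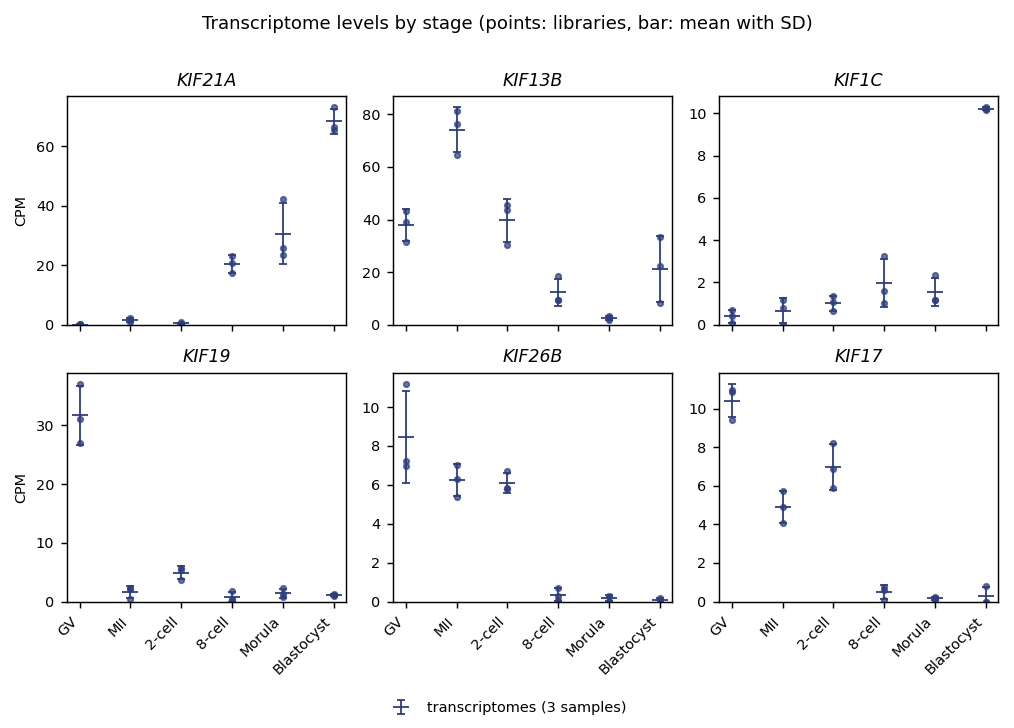
CPM (vertical axes, linear from 0, one scale per gene) of 6 kinesins in the 3 transcriptomes of each stage, with bars for the mean and its SD. KIF21A and KIF1C are highest in blastocysts, KIF13B dips in morulae, KIF19 is low from MII on, and KIF26B and KIF17 are low from the 8-cell stage on.

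Of the spindle motors, KIF11, KIF20A and KIF20B rose from GV to MII, by 1.01, 1.35 and 1.22 on the log2 scale, and so did KIF3A, KIF5B, KIF5C and KIF21A of the transport list, while KIF22 and KIF19 fell by 1.53 and 4.31. KIF20B fell again by 1.31 from MII to 2-cell, and KIF18B rose by 2.46. At genome activation KIF2A (2.02) and KIF11 (1.37) rose, while KIF14, KIF18A, KIF20B, KIF23 and KIF2C fell, from -2.75 for KIF14 to -1.37 for KIF2C. KIF18A, KIF2A, KIF23, KIF4A, KIF2C, KIF11 and KIF22 fell from morula to blastocyst, from -2.17 for KIF18A to -1.36 for KIF22. Of the 7 rises from GV to MII that of KIF5B alone held whichever library was left out. Without MII transcriptome C the rises over all transitions fell from 14 to 7, and with library totals in place of TMM to 9, a scaling that moved the median of all genes from GV to MII from 0.00 to -0.29.

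Polysome pools were compared over the same transitions. From GV to MII no member passed edgeR's quasi-likelihood test, with 3.03% and 2.33% of all genes rising and falling, 5 members at an unadjusted p below 0.05, 3 calls by DESeq2 and 1 by the likelihood ratio test. From MII to 2-cell 3 fell, namely KIF23, KIF20A and KIF22, where 5.14% of all genes fell and 3.37% rose. From 2-cell to 8-cell 4 rose and 13 fell (21.0% and 25.2%), from 8-cell to morula 3 rose and 13 fell (18.5% and 17.7%), and from morula to blastocyst 4 rose and 2 fell (5.79% and 8.13%). The split by list was widest from 2-cell to 8-cell, where 3 mitotic kinesins (KIF22, KIF11 and KIF20A) rose and 2 fell, and 1 transport kinesin rose and 9 fell. Median log2 changes at that step were -0.24 for mitotic, -1.62 for transport and -0.26 for all genes. Over the 5 transitions 15 changes passed in both transcriptome and polysomes, and all had the same direction. Of these, 13 were from 2-cell to 8-cell. The share of all genes that passed in both was not counted, so this is no result particular to kinesins.

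The pools of KIF22 rose from 355 and 355 CPM in 2-cell to 1454 and 1457 in 8-cell embryos, a log2 change of 2.04 ± 0.37 (SE, adjusted p = 0.000113), and KIF11 rose from 10.1 and 7.48 to 36.5 and 41 CPM (2.14 ± 0.41 SE, adjusted p = 0.000211). Neither gene's pools overlapped between these stages. With the polysome pools fitted without the transcriptomes the call of KIF11 was lost, and that of KIF22 was kept. KIF5B rose from 6.97 and 18.9 CPM in 8-cell embryos to 128 and 88.1 in morulae (3.06 ± 0.37 SE, adjusted p = 2.37e-06), again with no overlap. The largest fitted changes belonged to genes with pools at 0 and are given as levels. KIF5A went from 6.50 and 7.97 CPM in 2-cell pools to 0 in both 8-cell pools (adjusted p = 2.80e-05). KIF21A was at 0 and 0.0308, 0 and 5.04, 0 and 0.144 and 9.96 and 15.7 CPM in the pools from 2-cell to blastocyst, so that its rise to the 8-cell stage and its fall to the morula rested on 8-cell gradient B, without which they changed sign, and its rise to the blastocyst was seen in both gradients (adjusted p = 0.00266).

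KIF21B pools were at 0.195 and 3.48, 0 and 0 and 6.12 and 0.0575 CPM at 2-cell, 8-cell and morula, those of KIF6 at 0 and 6.34 and 0 and 0 and those of KIF26A at 0 and 0 and 0 and 3.36 at the 8-cell stage and in morulae. Each of these changes was lost without any 1 of 3 pools of the stages compared. KIF14, KIF7 and KIF24 fell from 8-cell to morula with all libraries and had a positive log2 change without 8-cell gradient B. KIF14 then even passed the test in the other direction (log2 change 4.62 against -5.02 with all libraries), its pools being at 0 and 11.3 CPM in 8-cell embryos and 0.0482 and 0.259 CPM in morulae. The fall of KIF20A from morula to blastocyst, at -2.16 on the log2 scale, was 0.15 without morula gradient B. Of the 42 polysome changes called, 19 held whichever library was left out, against 28 of the 42 transcriptome changes called. Under all the other alternatives 6 of the polysome changes and 34 of the transcriptome changes held.

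Whether polysome and transcriptome changes differed was tested directly, as the polysome change minus the transcriptome change. From GV to MII 1 member gained and 2 lost polysome occupancy in this sense, where 7.14% and 3.50% of all genes did, and from MII to 2-cell none gained and 1 lost (0.725% and 1.08%). No gain from MII to 2-cell stood beside 2 members at an unadjusted p below 0.05 and 1 call each by DESeq2 and the likelihood ratio test, in either direction. From 2-cell to 8-cell 3 gained and 3 lost (3.45% and 8.72%), from 8-cell to morula 2 and 5 (7.06% and 5.41%), and from morula to blastocyst 4 and 3 (6.04% and 6.24%). KIF22 gained occupancy from GV to MII, its transcriptomes falling from 339, 188 and 251 to 86, 88.3 and 96.2 CPM while its pools went from 577 and 524 to 1663 and 648 CPM (difference 2.60 ± 0.47 SE, adjusted p = 0.000603 on the log2 scale). KIF20B lost occupancy at the same step, with a log2 change of 1.22 in the transcriptomes and -0.86 in the pools (-2.08 ± 0.53 SE, adjusted p = 0.0118). With all libraries on a common scale, 20 of its 20 MII fractions, F1 to F10, were below the lowest MII transcriptome (2420 CPM). The highest of them was 217 CPM. Occupancy here is therefore only the ratio of pool to transcriptome, and does not place the mRNA within the gradient. The same holds for KIF23 and KIF5B below, whose 20 of 20 8-cell fractions each lay below the lowest 8-cell transcriptome. At the 8-cell stage the 3 members that gained, KIF23, KIF2C and KIF20B, were mitotic, and the 3 that lost, KIF5B, KIF5A and KIF21B, were transport kinesins. Of these 6 calls those of KIF23 and KIF5A alone held whichever library was left out, while KIF2C and KIF20B were each lost without any 1 of 8 of the 10 libraries, KIF21B without any of 7 and KIF5B without any of 4. KIF23 gained by 2.04 ± 0.47 (SE, adjusted p = 0.00673) as its transcriptomes fell from 1302, 1575 and 1034 to 276, 505 and 559 CPM and its pools went from 98.7 and 95.2 to 95.5 and 178 CPM. The difference for KIF5B was -1.57 ± 0.45 (SE, adjusted p = 0.0232) at this step and 2.26 ± 0.45 (SE, adjusted p = 0.00182) from 8-cell to morula. KIF3C lost occupancy from morula to blastocyst, by a difference of -3.34 ± 0.65 (SE, adjusted p = 0.0019), where its transcriptomes rose and its pools did not pass the test (log2 change -1.40). Only 9 of the 24 differences held whichever library was left out.

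Genes that act with kinesins were read from lists chosen by function. Of 30 spindle partners, 16, 23, 22, 16, 18 and 10 were lower in the pools than in the transcriptomes from GV to blastocyst in order, and 4, 3, 4, 4, 4 and 3 were higher. In the same order of stages 17.7%, 26.7%, 21.9%, 31.0%, 25.2% and 20.1% of all genes were lower. The shares of all genes that were higher were 22.2%, 30.8%, 29.1%, 28.0%, 26.5% and 20.0%. PLK1, the polo-like kinase that recruits several mitotic motors, was higher at MII, with 2207 ± 1103 CPM (SD, n = 2) in the pools against 28.7 ± 6.60 (SD, n = 3) in the transcriptomes (log2 fold change 6.26 ± 0.49 SE, adjusted p = 1.57e-10). KPNB1, an importin that holds spindle factors until they are released near chromatin, was lower at MII (-6.14 ± 1.17 SE, adjusted p = 9.40e-05), and so was ECT2, the exchange factor that centralspindlin recruits, in 2-cell embryos (-5.40 ± 0.40 SE, adjusted p = 2.66e-10). PLK1 was higher and ECT2 lower at all 6 stages. Of the 21 cargo adaptors and kinesin light chains tested, 5, 6, 5, 7, 7 and 2 were higher and 3, 9, 7, 7, 4 and 5 lower, to be read beside the shares of all genes given above. RHOT2, which links mitochondria to kinesin-1, was higher at MII (9.13 ± 0.67 SE, adjusted p = 5.66e-11), and KIFAP3, the non-motor subunit that binds KIF3A and its partner, was lower in 8-cell embryos (-8.44 ± 0.91 SE, adjusted p = 5.18e-08), as was SYBU, a syntaxin adaptor of kinesin-1, in 2-cell embryos, with both pools at 0 and 1.69 ± 0.633 CPM (SD, n = 3) in the transcriptomes. Of the 4 kinesins whose symbols do not follow the rule, KIFC1, the minus-end motor of the spindle, was higher in GV oocytes (6.05 ± 0.57 SE, adjusted p = 1.39e-08), KIFC2 at MII (7.54 ± 1.02 SE, adjusted p = 1.07e-06) and KIFC3 in 8-cell embryos (6.87 ± 0.31 SE, adjusted p = 1.54e-13). KIFC1 and KIFC3 were higher at all 6 stages and KIFC2 at 5, and CENPE, the kinetochore kinesin, named here after its values were seen, was lower at all 6.

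Over the 5 transitions the spindle partners had 16 rises and 35 falls in the transcriptomes and 14 and 24 in the pools, and 15 gains and 14 losses of occupancy. As shares of their 150 tests these were 10.7%, 23.3%, 9.33%, 16%, 10.0% and 9.33%, beside 11.2%, 11.8%, 10.3%, 11.7%, 4.88% and 4.99% over all genes. The adaptors had 5 and 13, 8 and 11, and 7 and 3, or 4.76%, 12.4%, 7.62%, 10.5%, 6.67% and 2.86% of 105 tests. In 8-cell embryos ECT2 was, like KIF23, higher in heavy than in light fractions (4.23 ± 0.78 SE, adjusted p = 0.00625), and it gained occupancy from 2-cell to 8-cell (2.98 ± 0.45 SE, adjusted p = 0.000139). KIFAP3 lost occupancy at that step (-5.92 ± 0.97 SE, adjusted p = 0.000359), while its partner KIF3A did not pass that test (0.81, adjusted p = 0.51).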

How the data were processed

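RNA was measured in 120 gradient fractions and 18 transcriptomes. Per the labels the authors quantified libraries with Salmon, and the deposited table holds expected counts by gene symbol, of which 11.7% were not whole (tolerance 1e-06); they were rounded. The sources name different genome builds, and neither stranded counting nor transcript lengths are given, so levels were not compared between genes. F8 to F10 were summed within each gradient, as were F3 to F5.

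edgeR 4.0.16 (R 4.3.3) fitted 12 polysome pools and 18 transcriptomes as 12 groups with TMM factors and filterByExpr, and 24 heavy and light pools likewise. The quasi-likelihood test was two-sided, with Benjamini-Hochberg adjustment over all genes tested, and changes between stages also had to exceed 2-fold. Replicates were separate pools of oocytes or embryos. The p-values rest on a spread between replicates that was estimated over all 12 groups of a fit. They do not measure the spread at a single stage. With heavy and light pools of each stage fitted alone, the common dispersion was 0.155 in GV and 1.14 in 8-cell gradients. The likelihood ratio test, DESeq2 1.42.0, limma 3.58.1, other scalings, filters, poolings and depths were alternatives. Gradients and transcriptomes of a stage came from the same batches, but no source ties their letters to a batch. The deviations of pools and transcriptomes of the same letter from their group means correlated with r between -0.0684 and 0.0379. Heavy and light pools of the same gradient, which share a source, gave only -0.085 to 0.173. The correlation therefore could not decide whether the letters pair.

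The members and lists were chosen with earlier results of these data known. Values in every sample are given for the members called at the most stages, up to 5 a direction, and for the 3 largest called changes a direction in each other family of comparisons; no member was called in opposite directions in transcriptome and pools. On simulated data 48% of 4-fold and 98% of 16-fold changes were recovered between GV pools and transcriptomes, and 5% and 39% between heavy and light GV pools. There were 10 and 2 false calls in these comparisons. Only well-counted genes were changed, the simulated spread followed the trend with level and not the single gene, and only GV comparisons were simulated. These shares therefore do not describe low-count kinesins or later stages. No sequences were used.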

Additional observations from a re-analysis of the deposited data

Results flagged for a closer look

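For 24 kinesin changes between consecutive stages the polysome pools and the transcriptomes differed by the direct test of the difference, polysome change minus transcriptome change on the log2 scale (edgeR's quasi-likelihood test with Benjamini-Hochberg adjustment over all genes). Of these, 9 held whichever library was left out.

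From GV to MII the genes were KIF22 (2.60, adjusted p = 0.000603), KIF20B (-2.08, adjusted p = 0.0118) and KIF5B (-1.43, adjusted p = 0.0391). KIF22 changed by 1.07 in the pools and -1.53 in the transcriptomes, and KIF5B by 0.05 in the pools and 1.49 in the transcriptomes. From MII to 2-cell the gene was KIF22 (-1.99, adjusted p = 0.0283), so that the difference of KIF22 had opposite signs at these consecutive steps, which share the MII libraries.

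From 2-cell to 8-cell they were KIF23 (2.04, adjusted p = 0.00673), KIF2C (1.72, adjusted p = 0.0376), KIF20B (1.65, adjusted p = 0.0425), KIF5B (-1.57, adjusted p = 0.0232), KIF5A (adjusted p = 0.00375) and KIF21B (adjusted p = 0.0311). KIF5A and KIF21B had both 8-cell pools at 0, so their fitted differences depend on the prior count and are not given. KIF2C changed by 0.34 in the pools and -1.37 in the transcriptomes.

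From 8-cell to morula they were KIF27 (-5.98, adjusted p = 0.000824), KIF20B (-2.74, adjusted p = 0.00169), KIF5B (2.26, adjusted p = 0.00182), KIF21A (-5.42, adjusted p = 0.0268), KIF23 (-1.60, adjusted p = 0.0272), KIF14 (-4.37, adjusted p = 0.0422) and KIF21B (adjusted p = 0.0153). KIF21A and KIF14 changed sign without gradient B of the 8-cell stage, to 3.08 and 5.27, and KIF14 then passed the test in the other direction.

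From morula to blastocyst they were KIF3C (-3.34, adjusted p = 0.0019), KIF23 (2.04, adjusted p = 0.00751), KIF20B (2.13, adjusted p = 0.0127), KIF21A (6.01, adjusted p = 0.0172), KIF1C (-5.19, adjusted p = 0.018), KIF16B (-2.43, adjusted p = 0.0311) and KIF27 (3.45, adjusted p = 0.0339). KIF1C changed by -2.48 in the pools and 2.70 in the transcriptomes, and KIF23 by -0.00 in the pools and -2.04 in the transcriptomes. KIF20B appeared at every step but that from MII to 2-cell, with differences of both signs.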

How the results depend on the processing

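Under all alternatives other than leaving out a library, 63 of 99 differences between pools and transcriptomes, 34 of 42 transcriptome changes, 6 of 42 polysome changes, 14 of 24 changes of occupancy and 0 of 6 heavy-to-light differences kept their direction and passed the test; without the fits of each stage alone the last count was 1 of 6. Rises in the transcriptomes went from 14 to 9 with library totals and to 23 with transcriptomes fitted alone. Rises in the pools went from 11 to 7 with F6 to F10 as polysomes and to 2 with pools fitted alone, and falls from 31 to 5 with pools alone. DESeq2 called 22 losses of occupancy in place of 14. In the heavy-to-light comparison the 3 higher and 3 lower calls became 10 and 9 by the likelihood ratio test, 9 and 10 by DESeq2, 5 and 5 by limma on mean CPM, 1 and 1 for F9 to F10 against F3 to F4, and 9 and 4 with each stage alone, none of them in 8-cell gradients. In 8-cell gradients fitted alone 0 of all 12067 genes passed. With a pseudocount of 0.1 the median heavy-minus-light difference moved from 0.09 to 0.026 in GV, -0.08 to -0.40 in MII, 0.06 to 0.0043 in 2-cell, -0.31 to -0.58 in 8-cell and 0.26 to 0.71 in blastocyst gradients. With F6 to F10 as polysomes KIF5A against the 8-cell transcriptome came to 0.37 and KIF21A from 8-cell to morula to 0.31. The cause of these shifts was not tested. Library totals also moved the median of all genes from MII to 2-cell from 0.00 to 0.46 and the share of rises among calls from 50.2% to 79.9%.

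A replicate block by letter took the pool-against-transcriptome calls from 31 to 17 higher and 68 to 53 lower. The deviations of pools and transcriptomes of the same letter gave r between -0.0684 and 0.0379 over 12 pairs. Heavy and light pools of the same gradient, which share a source, gave only -0.085 to 0.173. This check therefore could not decide whether the letters pair. With the block the transitions gave 13 and 28 calls in the transcriptomes, 10 and 29 in the pools and 8 and 12 in occupancy. With the gradient as replicate block, which pairs heavy and light pools by their source, 1 higher and 3 lower calls were left.

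Leaving out each library in turn gave 29 to 33 higher and 65 to 71 lower calls against the transcriptome, 7 to 14 and 26 to 28 in the transcriptomes, 9 to 16 and 23 to 33 in the pools, 8 to 18 and 11 to 22 in occupancy and 0 to 5 and 1 to 5 for heavy against light. The log2 change ranged across 0 for polysome changes of KIF21A (-1.61 to 8.48) from 2-cell to 8-cell and, from 8-cell to morula, of KIF14 (-6.67 to 4.62), KIF21A (-8.48 to 3.66), KIF7 (-10.31 to 0.76) and KIF24 (-3.02 to 1.27), and for occupancy changes of KIF14 (-6.02 to 5.27) and KIF21A (-9.06 to 3.08) at that step, each turned by leaving out 8-cell gradient B, and for the polysome change of KIF20A (-2.98 to 0.15) from morula to blastocyst, turned without morula gradient B. With 2 gradients a stage, changes of low-level kinesins rest on few counts.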
